A study of Saccharomyces cerevisiae with 104 samples.

Results

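Lysine 44 of histone H4 was replaced by glutamine (H4K44Q) in one yeast strain and by arginine (H4K44R) in another, and the messenger RNA of both was counted in 3 libraries each. These 6 libraries were taken by genotype from the column names of the count table, which holds 90 RNA libraries of 30 genotypes of budding yeast with a point mutation in histone H3 or H4, wild type (WT) included. WT had 4 libraries and was used here as the reference for each mutant. The strains share the MSY196 background, which derives from S288C. The labels give no growth condition for the RNA samples. They do not say how the mutant histone gene is carried or whether replicates were separate cultures. The p-values of the main fit therefore measure a spread between libraries of a genotype, estimated over all 90 libraries, which may be technical.

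Lysine 44 lies in the globular part of H4, close to the DNA that wraps the nucleosome. In budding yeast this residue is needed for Set2, the enzyme that methylates lysine 36 of H3 on transcribed genes, where the mark recruits the Rpd3S deacetylase and keeps cryptic promoters inside genes silent. Arginine keeps the positive charge of lysine, whereas glutamine is uncharged and is often used as a stand-in for acetylated lysine. The comparison of the 2 substitutions therefore asks what differs between an uncharged and a charged residue at the same place. The sheet of gene counts does not show the mutated codon, so the genotype could not be checked from the counts.

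A library is named by its sample number. The H4K44Q libraries S92, S93 and S117 held 1320294, 1876839 and 1151414 counts in genes, and the H4K44R libraries S91, S115 and S116 held 1579024, 1910988 and 1708675. The WT libraries held 1748800 to 2024896. Sample numbers fall into 3 sets, a division made after the columns were seen, in which the order of genotypes starts anew. H4K44Q S92 and S93 and H4K44R S91 lie in set 1, whereas H4K44Q S117 and H4K44R S115 and S116 lie in set 2. WT has 3 libraries in set 1, none in set 2 and 1 in set 3 (S133). All 10 libraries carried the RNA of cells of mating type alpha. Of 6 alpha genes, 4 stood between 41 and 1413 CPM (counts per 1000000 counts, on library sizes scaled with edgeR's TMM method), and the other 2 were at 0. None of 7 genes of the other mating type exceeded 12.9 CPM.

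No gene differed between H4K44Q and H4K44R past the threshold. Of 5822 genes tested with edgeR's quasi-likelihood test, 0 (0%) had a Benjamini-Hochberg adjusted p under 0.05, and the smallest adjusted p was 0.0964. At an unadjusted p under 0.05 there were 385 genes (6.61%), of which 215 (3.69%) were higher and 170 (2.92%) lower in H4K44Q, and DESeq2 called 1 gene. With the number set as a covariate, a fit added after the data were seen, 9 genes were called, 7 of them higher. Scaling by relative log expression gave 2 calls, leaving out H4K44Q S117 gave 2 and leaving out H4K44Q S92 gave 1. The median log2 difference over all genes was 0.0086.

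The size of difference that the libraries could miss depended on the level. The 95% interval of the log2 difference lay wholly within 1 either way for 3729 of 4763 genes with a mean of at least 10 CPM (78.3%). Below 10 CPM the same held for 87 of 1059 genes (8.22%), so for most of the rarely counted genes a 2-fold difference lay within the interval. Of the 257 genes with an estimate of 1 or more either way, 178 were below 10 CPM.

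**Figure D1:**
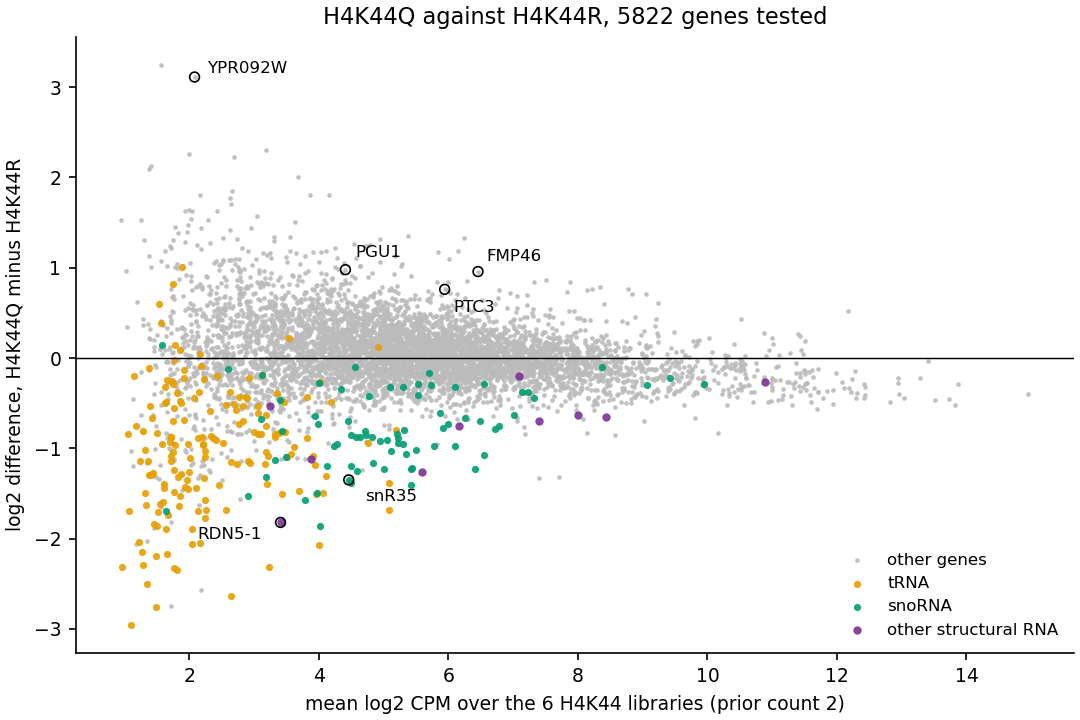
Each point is 1 of 5822 genes, with the mean log2 CPM over the 6 H4K44 libraries on the horizontal axis and the log2 difference of H4K44Q minus H4K44R on the vertical axis. Estimates narrow around 0 with rising level, and 75 of 76 snoRNA genes and 154 of 163 tRNA genes lie below 0.

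The gene with the smallest p was FMP46 (YKR049C, chromosome XI, 526830 to 527231, build R64), which encodes a putative redox protein of mitochondria. Its level was 98.4, 115.9 and 151 CPM in H4K44Q S92, S93 and S117, and 65.9, 56.7 and 65.2 CPM in H4K44R S91, S115 and S116. The WT libraries stood at 38.1 to 53.6 CPM. The 3 genotypes did not overlap: WT was lowest, H4K44R in between and H4K44Q highest. The log2 difference of H4K44Q from H4K44R was 0.96 ± 0.21 (SE; 95% interval 0.54 to 1.37; edgeR adjusted p = 0.0964), and the difference of mean log2 levels was 0.69 within set 1 and 1.29 within set 2. FMP46 was called in 5 of 17 alternatives: DESeq2 (adjusted p = 0.0108) and, in edgeR, runs of sample numbers (0.0198) or number set (0.0269) as covariate, relative log expression scaling (0.0467) and the fit without H4K44Q S92 (0.0479).

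PTC3 (YBL056W, chromosome II, 113762 to 115168), a protein phosphatase of type 2C, had the same adjusted p. It stood at 91.7, 68.8 and 77 CPM in H4K44Q S92, S93 and S117 and at 43.5, 56.2 and 39.9 CPM in H4K44R S91, S115 and S116. WT, at 51.7 to 62.2 CPM, lay below every H4K44Q library and overlapped 1 H4K44R library. The log2 difference was 0.76 ± 0.17 (SE), and edgeR called it with the number set as covariate (adjusted p = 0.0353) and with relative log expression scaling (0.0467).

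YNR065C, a gene of the VPS10 (sortilin) family on chromosome XIV, stood at 37 to 77 CPM in H4K44Q, 23 to 32.1 in H4K44R and 19.2 to 32.1 in WT. Here H4K44R lay within the range of WT and the H4K44Q libraries lay above both. It was called in 2 of 17 alternatives, those with runs of sample numbers and with the number set as covariate (edgeR adjusted p = 0.0168 in the latter).

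The other 7 of the 10 genes of smallest p on the higher side had no overlap between the genotypes either. That held for 5.74% of all genes on the higher side. Genes chosen by a small p tend to separate in the same libraries, so this describes them and is no test. NPL4, a cofactor of the Cdc48 segregase, stood at 38.9 to 53.7 CPM in H4K44Q and 21.8 to 33.9 in H4K44R. GUF1, a GTPase of mitochondrial translation, stood at 19.1 to 26.6 CPM against 9.39 to 10.9. YPR092W, a dubious reading frame without a position in the annotation used, was scarce, with 5.92 to 9.91 CPM in H4K44Q against 0.573 to 1.17 in H4K44R and 0 to 2.51 in WT. Its log2 difference of 3.11 had a 95% interval of 1.35 to 4.87, the widest of these genes. AIM3, YDR131C, CIN10 and RRT1 had log2 differences of 0.88 to 1.32. None of these genes passed the threshold (edgeR adjusted p from 0.135 to 0.362).

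**Figure D2:**
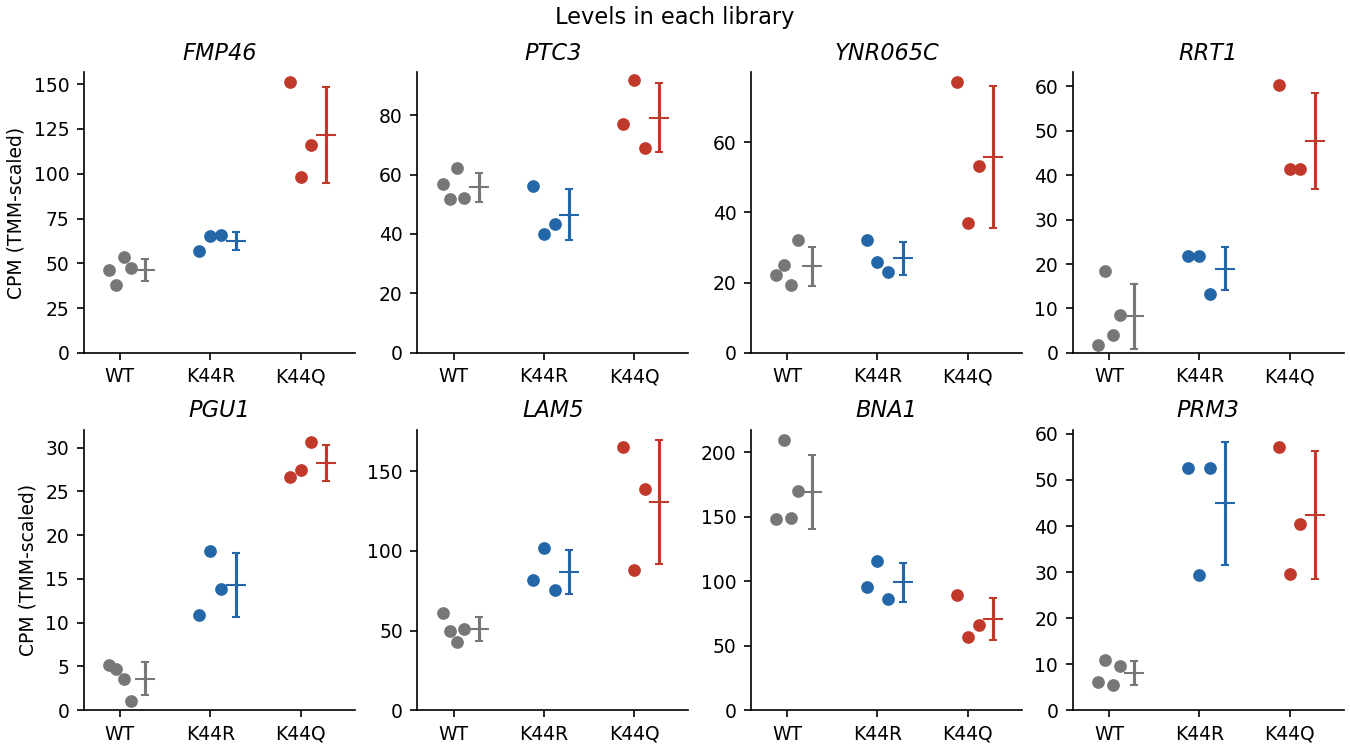
Each point is the CPM of a gene in 1 library of WT (4), H4K44R (3) or H4K44Q (3), with the mean and standard deviation beside them, on axes that start at 0. For FMP46 and PGU1 the genotypes form 3 steps without overlap, and for PRM3 the mutants overlap each other and lie above WT.

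On the lower side of the comparison, structural RNA was frequent. Of the 10 genes of smallest p there, 7 are not protein-coding: the H/ACA snoRNAs snR35, snR189, snR10, snR30 and snR34, the leucine tRNA tL(CAA)G1 and the 5S ribosomal RNA RDN5-1. H/ACA snoRNAs guide pseudouridylation, and snR30 is needed to process 18S ribosomal RNA. The other 3 were HMG1, an HMG-CoA reductase of the mevalonate pathway, the subtelomeric gene COS10 and YPL114W, a dubious reading frame. Structural RNA made up 74 of the 170 genes with an unadjusted p under 0.05 on the lower side (43.5%) and 0 of the 215 on the higher side, beside 4.28% of the genes tested. None of the 249 structural RNA genes tested was called in this fit, but snR35, tL(CAA)G1 and snR189 were called in 3, 2 and 1 of 17 alternatives.

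The H/ACA RNA snR35 stood at 8.88, 10.8 and 20.6 CPM in H4K44Q S92, S93 and S117, and at 36.9, 28.1 and 36.4 CPM in H4K44R S91, S115 and S116. WT spread from 12.2 to 30.5 CPM, over the upper H4K44Q library and the lowest H4K44R library. The log2 difference was -1.35 ± 0.31 (SE; edgeR adjusted p = 0.0964). edgeR called snR35 with the number set as covariate (adjusted p = 0.0269), with runs of sample numbers as covariate (0.0198) and without H4K44Q S117 (0.0186). snR30 stood at 57 to 69.3 CPM in H4K44Q, 110.6 to 179 in H4K44R and 75.4 to 127.5 in WT. RDN5-1 stood at 3.70 to 6.13 CPM, 14.3 to 21.7 CPM and 7.08 to 14.0 CPM in the same order. The copies of 5S RNA and of each tRNA are near identical and the counting left out reads that fit several places, so the value of a single copy is uncertain.

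Over whole classes the direction was shared. Of 76 snoRNAs tested, 75 lay below 0 in H4K44Q minus H4K44R (median log2 -0.82), and 36 had an unadjusted p under 0.05. That is 47.4% on the lower side, beside 2.92% of all genes. In 31 of the 76 every H4K44Q library lay below every H4K44R library, as in 5.93% of all genes. Both families took part: 28 of 29 H/ACA RNAs (median -0.84) and 47 of 47 C/D RNAs, which guide ribose methylation (median -0.81). Of 163 tRNA genes tested, 154 lay below 0 (median -0.97), 35 with an unadjusted p under 0.05. The tRNA median was -0.635 without H4K44R S116. As a difference of mean log2 levels, a measure unlike the edgeR estimate, it was -0.54 within set 1 and -0.46 within set 2. The 5 spliceosomal RNAs tested and 5 of 5 other structural RNAs, among them the telomerase RNA TLC1, also had estimates below 0. These classes were chosen after the values were seen, so the counts are a description.

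The summed level of the snoRNAs was 3074, 5288 and 6148 CPM in H4K44Q S92, S93 and S117, and 6730, 6564 and 7333 CPM in H4K44R S91, S115 and S116. WT held 4888 to 6693 CPM, which overlaps the ranges of both mutants. All 3 H4K44R libraries lay above the 3 H4K44Q libraries. For the tRNA genes the sums were 527, 593 and 1011 CPM in H4K44Q and 971, 1152 and 2007 CPM in H4K44R, and these overlapped. Among the 30 genotypes, the mean of H4K44Q ranked 30th from the highest for both classes, whereas H4K44R ranked 16th for snoRNAs and 19th for tRNA genes, and WT 25th and 29th. The single H4K44Q libraries were spread. Among the 90 libraries S92, S93 and S117 ranked 90th, 77th and 64th for snoRNAs, and 89th, 87th and 69th for tRNA genes. Against WT, which both comparisons share, the median snoRNA was -0.33 in H4K44Q and 0.48 in H4K44R, and no snoRNA was called in either.

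Within set 1 the median snoRNA difference was -0.86, with 74 of 76 below 0, and within set 2 it was -0.45, with 58 of 76 below 0. In bulk RNA, fewer cells that hold an RNA and less of it per cell cannot be told apart. QuantSeq primes on runs of A, so for RNAs without a long poly(A) tail the count reflects the part that was primed. H4K44Q S92, the library with the lowest snoRNA sum, also had the fewest counts outside genes, 0.406 per gene count beside 0.583 to 0.711 in the other 5 libraries. It also had the fewest reads placed at several sites, 3.31 per gene count beside 3.92 to 5.65. Their part in the result was not tested.

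Protein-coding groups differed less, and several rested on single libraries. Of 57 proteins of the small ribosomal subunit 48 lay below 0 (median log2 -0.22), and of 81 of the large subunit 71 (median -0.25). On the lower side 2 (3.51%) and 6 (7.41%) of them had an unadjusted p under 0.05, beside 2.92% of all genes. RPS22B, a protein of the small subunit, was named after its values were seen and lay further below 0 than the list median. It stood at 662 to 992 CPM in H4K44Q and 1282 to 1765 CPM in H4K44R, without overlap, at a log2 difference of -0.83 (edgeR adjusted p = 0.465). The medians of the small and large subunit were -0.03 and -0.06 within set 1 and -0.51 and -0.48 within set 2, where 57 of 57 and 80 of 81 genes lay below 0. In the 41 Gcn4 targets of amino acid synthesis, 37 lay below 0 (median -0.22), and again the set 2 median of -0.59 was larger than that of set 1 (-0.04). LYS1, the last enzyme of lysine synthesis, stood at 267 to 306 CPM in H4K44Q and 339 to 622 CPM in H4K44R. No member of these lists was called.

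Genes of the general stress response, which the factors Msn2 and Msn4 control, had a median of 0.44, with 29 of 33 above 0. The disaggregase gene HSP104 stood at 69.6, 40.1 and 212 CPM in H4K44Q S92, S93 and S117 and at 38.1, 37.8 and 72.8 CPM in H4K44R S91, S115 and S116. Only S117 exceeded the highest H4K44R library. The summed level of the list was 2170 CPM in H4K44Q S117 and 2158 CPM in WT S46. Without S117 the median of the list was -0.06, that of 38 respiratory chain genes went from 0.28 to -0.09 and that of 16 trehalose and glycogen genes from 0.40 to -0.11. Within set 1, to which S117 does not belong, the medians of the difference of mean log2 levels were 0.18, 0.09 and 0.17 in the same order. Within set 2 they were 0.75, 0.64 and 0.74. S117 was also the library of lowest depth among the 6, and the part of depth in these medians was not tested.

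The iron regulon, which Aft1 turns on when iron is short, was high in other H4K44Q libraries than the stress genes. Of 27 genes, 23 lay above 0 (median 0.52), and 5 had an unadjusted p under 0.05 on the higher side (18.5%, beside 3.69% of all genes). ARN1, a transporter of siderophores, stood at 57.7, 24.5 and 19.8 CPM in H4K44Q S92, S93 and S117 and at 4.84, 14.9 and 8.81 CPM in H4K44R S91, S115 and S116, without overlap. ATX1, the copper chaperone, stood at 123.5 to 176 CPM against 73.4 to 94.3 CPM, also without overlap. The list as a whole was high in S92 and S93 and not in S117. Its median difference of mean log2 levels was 0.79 within set 1 and -0.04 within set 2.

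**Figure D3:**
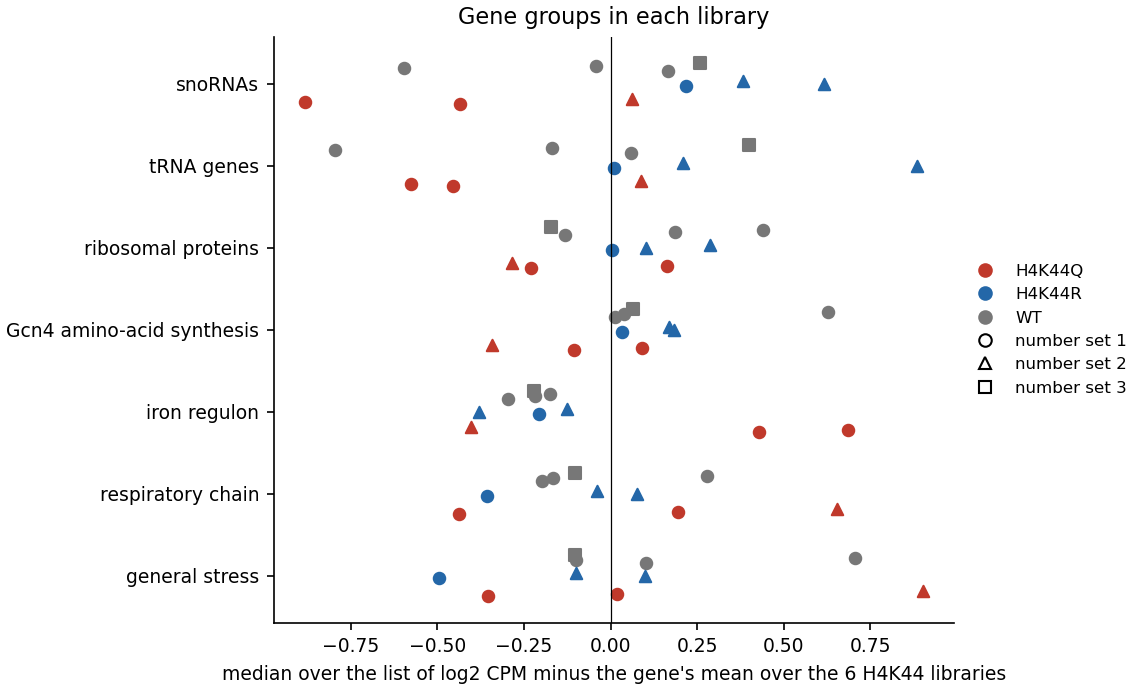
Each symbol is 1 library, placed at the median over a gene group of log2 CPM minus the gene's mean over the 6 H4K44 libraries, with colour for genotype and shape for the set of sample numbers. The snoRNA medians of the 3 H4K44Q libraries lie below those of the 3 H4K44R libraries. Among these 6 libraries the general stress median is high in H4K44Q S117 alone and the iron regulon in S92 and S93. For general stress WT S46 also lies high, at 0.705 beside 0.901 in S117.

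The histone genes had median differences on different sides of 0 in the 2 sets, but within set 1 a single H4K44Q library stood apart. Their summed level was 3899 CPM in H4K44Q S92, beside 1944 CPM in H4K44Q S93 and 2171 CPM in H4K44R S91. Of 11 tested, 9 lay above 0 within set 1 (median 0.28) and 10 below 0 within set 2 (median -0.51). HHF1, a gene of histone H4, stood at 2090, 981 and 1076 CPM in H4K44Q S92, S93 and S117 and at 1199, 1884 and 1451 CPM in H4K44R S91, S115 and S116, which overlap. HHF2, the other H4 gene, stood at 102.8, 53.2 and 17.5 CPM against 27.8, 24.6 and 26.4 CPM, so that the H4K44Q libraries spread on both sides of the H4K44R libraries. Its log2 difference was 1.14 (unadjusted p = 0.0197 in edgeR), and the difference of mean log2 levels was 1.37 within set 1 and -0.51 within set 2. CSE4, the H3 variant of centromeres, was at 17.8 to 31.3 CPM in H4K44Q and 32.7 to 39.9 CPM in H4K44R, a log2 difference of -0.56. Over both sets 6 of the 11 lay above and 5 below 0, and none was called.

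Genes of the Set2 pathway itself did not separate the substitutions. The 23 members tested had a median difference of 0.02, with 12 above 0. Of 15 genes known for cryptic or intragenic transcription when Set2 is lost, 12 lay above 0, with a median of 0.25. The median was 0.00 within set 1, where 7 lay above 0, and 0.40 within set 2, where 14 did, and it was 0.164 without H4K44Q S93. PCA1, a cadmium-exporting ATPase, stood at 18.3 to 37.0 CPM in H4K44Q and 9.07 to 13.2 CPM in H4K44R, without overlap (log2 1.19; edgeR adjusted p = 0.465). FLO8, a factor of filamentous growth with a well-known cryptic start, stood at 9.42 to 9.91 CPM against 6.30 to 8.22 CPM. Reads at 3′ ends count a full-length and an internally started transcript alike when both end at the same place, so an internal start shows only as a higher count.

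Set beside WT, the mutants differed in the number of genes called. H4K44Q differed from WT in 38 genes (0.653%), 34 higher and 4 lower, with 42 calls by DESeq2. H4K44R differed from WT in 1 gene (0.0172%), while 318 genes (5.46%) had an unadjusted p under 0.05. Both counts rest on the same 4 WT libraries, and a call in one and not in the other is no test of their difference, which is the direct comparison above. With the runs of sample numbers as a covariate H4K44Q had 165 calls and H4K44R 22. With the number set as covariate the counts were 64 and 5, and with a minimum log2 fold change of 1 they were 2 and 0. In a fit on the compared genotypes alone H4K44Q kept 6 of its calls, and without WT S133, H4K44Q S92 or H4K44Q S93 it had 24, 25 or 23.

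The single gene called in H4K44R was PRM3 (YPL192C, chromosome XVI, 182655 to 183056), which is needed for the fusion of nuclei in mating. It stood at 52.6, 52.7 and 29.4 CPM in H4K44R S91, S115 and S116, at 29.6, 40.5 and 57.2 CPM in H4K44Q S92, S93 and S117, and at 5.57 to 10.9 CPM in WT. The mutants overlapped each other throughout and both lay above every WT library. The log2 difference from WT was 2.50 ± 0.49 (SE) in H4K44R (edgeR adjusted p = 0.0147) and 2.41 ± 0.49 in H4K44Q (edgeR adjusted p = 0.00252). Between the mutants it was -0.08, with a 95% interval of -1.01 to 0.85. The call in H4K44R was lost without any one of S115, S91, WT S133, WT S81 and WT S82, at edgeR adjusted p of 0.0607 to 0.214. Of 20 pheromone-induced genes tested, 17 lay above WT in H4K44Q and 18 in H4K44R, beside 47.5% and 47.1% of all genes. Only PRM3 was called, where 0.653% and 0.0172% of all genes were. Both counts rest on the same 4 WT libraries, so they are not separate observations.

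Among the genes that rose in H4K44Q against WT, the smallest p belonged to FMP46 (log2 1.39 ± 0.19; edgeR adjusted p = 3.86e-06). RRT1, named from a screen on ribosomal DNA transcription, rose by 2.61 ± 0.40. It stood at 41.4, 41.5 and 60.2 CPM in H4K44Q and 13.3, 21.8 and 21.7 CPM in H4K44R, and WT spread from 1.88 to 18.4 CPM. PGU1 (YJR153W, chromosome X, 722815 to 723900), an endopolygalacturonase that cuts pectin, stood at 27.4, 30.6 and 26.7 CPM in H4K44Q S92, S93 and S117. H4K44R S91, S115 and S116 held 13.9, 10.9 and 18.2 CPM, and WT 1.0 to 5.16 CPM, so the 3 genotypes formed 3 steps. PGU1 rose by 2.96 ± 0.47 on the log2 scale (edgeR adjusted p = 4.13e-05), and the estimate in H4K44R, 1.98, was not called (edgeR adjusted p = 0.288).

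Other genes that rose in H4K44Q included LAM5, a sterol transfer protein of membrane contacts (log2 1.35), PDC5, a pyruvate decarboxylase (1.57), and SEC6, a subunit of the exocyst (1.01). PUL3, a transporter of the iron chelate pulcherrimin, rose by 3.08 from 1.36 to 2.53 CPM in WT to 10.8 to 20.7 CPM. The allantoinase DAL1 (1.83), the allantoin permease DAL4 (1.78), the urea amidolyase DUR12 (1.22) and the basic amino acid permease ALP1 (1.45) were also called. So were the zinc transporter ZRT1 (1.94), the glycerol kinase GUT1 (0.78), the vacuolar glutathione conjugate transporter YCF1 (0.58) and the cell wall mannoproteins DAN1 (3.04) and TIR2 (1.09). DAN1 rested on 2 libraries, with 20.7 and 19.8 CPM in S92 and S93 and 0.762 CPM in S117, beside 0.469 to 5.44 CPM in WT. Several of these calls were not stable. Among the alternatives, TIR2 was lost in 10, ZRT1 in 9, GUT1 and YCF1 in 7 each, DAN1 in 5 and DAL1 in 4. Leaving out H4K44Q S92 ended the calls of all 6 of these genes, and leaving out S93 ended those of ALP1 and all of the 6 but DAL1. Without S117 those of TIR2 and GUT1 were lost. Of the WT libraries, S133 was needed for TIR2, ZRT1, YCF1, DAN1 and DAL1, S46 for ZRT1, GUT1 and YCF1, S81 for TIR2 and ZRT1, and S82 for TIR2, ZRT1 and GUT1.

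The 4 genes that fell in H4K44Q against WT were BNA1, an enzyme of NAD synthesis from tryptophan, ARG56, the gene of acetylglutamate kinase and reductase in arginine synthesis, the ubiquitin hydrolase gene YUH1 and YDL085C-A. BNA1 (YJR025C, chromosome X, 471138 to 471671) stood at 57, 66 and 89.2 CPM in H4K44Q S92, S93 and S117, at 86.5 to 115.7 CPM in H4K44R and at 148 to 210 CPM in WT. Both mutants lay below every WT library and overlapped each other. The log2 difference was -1.26 ± 0.25 (SE; edgeR adjusted p = 0.00156). ARG56 rested on WT S46, which held 368 CPM beside 74.3 to 95.1 CPM in the other 3 WT libraries. Without S46 its difference was -0.46 and not called (edgeR adjusted p = 0.75). The calls of ARG56, YUH1 and YDL085C-A were also lost without any one of the H4K44Q libraries, that of YUH1 without WT S46 or S81, and that of YDL085C-A without WT S133.

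For most of these 38 genes H4K44R stood on the same side of WT, less far out. Of the 34 that rose, 33 had every H4K44Q library above every WT library, beside 4.47% of all genes. The mean of H4K44R lay between WT and H4K44Q in 33 of 34, and in 4 of the 4 that fell. In 19 of the 34 every H4K44Q library also exceeded every H4K44R library, as in 5.74% of all genes. The median log2 value of the 34 was 0.59 for H4K44Q minus H4K44R and 0.69 for H4K44R minus WT. These genes were chosen by high values in the H4K44Q libraries relative to WT and the comparisons share libraries, so these counts describe the genes and do not test them.

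Pairs of mutants at other lysines share no library with this choice. In H3K36Q minus H3K36R, at the lysine that Set2 methylates, 29 of the 34 genes lay above 0 (85.3%) beside 50% of all genes, with a median of 0.21 and no gene called; over all genes that pair had 0 calls and 98 (1.68%) with an unadjusted p under 0.05. In H4K91Q minus H4K91R 27 lay above 0 (79.4%, beside 48.4%), and RRT1 was called (log2 3.11; edgeR adjusted p = 6.15e-05), where 0.155% of all genes were called. In H3K4Q minus H3K4R 23 lay above 0. In H3K37Q minus H3K37R 29 lay above 0 and 13 were called, where 4.45% of all genes were called. That pair carries a shift of chromosome XI, whose 298 genes had a median of 0.83 beside -0.05 to 0.04 on the other nuclear chromosomes. Off chromosome XI, 27 of 32 lay above 0 and 11 were called, beside 2.28% of the genes there. They included PUL3 (log2 3.80), RRT1 (1.75), PGU1 (1.83) and LAM5 (1.10). For H3K115 and H3K121 the counts above 0 were 12 and 15 of 34 (35.3% and 44.1%), beside 47.8% and 47.5% of all genes. In the H3K121 pair 1 of the 34 was called, where 2.58% of all genes were, and in the H3K115 pair 0, where 0.0172% were.

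**Figure D4:**
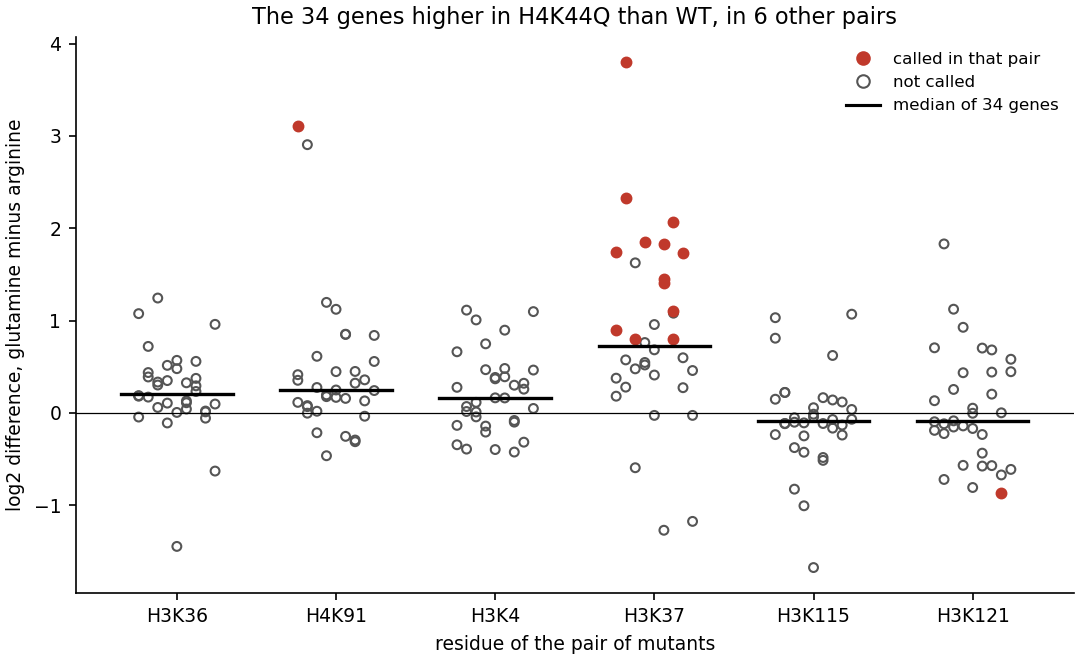
Each point is 1 of the 34 genes called higher in H4K44Q than in WT, placed at its log2 difference of glutamine minus arginine in a pair of mutants at another residue, with filled points where that pair called the gene and a bar at the median. The median is 0.72 for H3K37, where 13 genes are filled, and -0.09 for both H3K115 and H3K121.

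The profile of the exchange at H4K44 was also set beside that at other residues. Across the 5822 genes, which are not independent, Pearson's r of the log2 differences was -0.01 with H3K36, 0.14 with H4K91, 0.16 with H3K4, 0.21 with H3K37, 0.15 with H3K115 and -0.07 with H3K121. Over the 4763 genes of at least 10 CPM it was 0.076, 0.243, 0.128, 0.288, 0.189 and -0.032 in the same order. These pairs share no library. Of the 57 small subunit proteins 55 lay below 0 in the H3K36 pair and 54 in the H4K91 pair (medians -0.22 and -0.18), and of the 81 large subunit proteins 77 and 74 (medians -0.20 and -0.17). Of the 76 snoRNAs, 20 lay below 0 in the H3K36 pair (median 0.12) and 50 in the H4K91 pair (median -0.16).

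Whether the exchange acted differently at H4K44 than elsewhere was tested by the difference of the differences. Against H3K36, edgeR called 0 of 5822 genes (0%), with 211 (3.62%) at an unadjusted p under 0.05 and 0 by DESeq2. Against H4K91, 1 gene was called (0.0172%). It was COG6, a subunit of the COG complex of the Golgi, with a difference of -1.55 ± 0.25 (SE; edgeR adjusted p = 0.000341). COG6 stood at 57, 62.2 and 48.8 CPM in H4K44Q S92, S93 and S117, at 54.4 to 65.2 CPM in H4K44R and at 49 to 66.4 CPM in H4K91R, while H4K91Q held 146 to 177 CPM. The H4K91Q libraries stood apart from all others, and the H4K44 genotypes overlapped. No snoRNA was called in either test. Of 76 snoRNAs, 75 had a lower difference at H4K44 than at H3K36, with a median of -0.89. The class was chosen after its values at H4K44 were seen, so this count is a description.

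A set of 10 genes that earlier work on these libraries had tied to H3K36 gave 5 values above and 5 below 0 in H4K44Q minus H4K44R, with a median of 0.15. The list was chosen on these data and is no independent evidence. H3K36A, with alanine at lysine 36 of H3, was compared with the same 4 WT libraries, so its values stand beside those of H4K44Q without a test. PGU1 was at 2.30 in H3K36A and 2.96 in H4K44Q, LAM5 at 1.61 and 1.35, and PUL3 at 2.46 and 3.08, all as log2 differences from WT. BNA1 was at -1.79 and -1.26, and ARG56 at -1.61 and -1.34. Both ARG56 values include WT S46, without which that of H4K44Q was -0.46. IRC18, at 10.8 to 19.1 CPM in H4K44Q, 14.1 to 20.6 CPM in H4K44R and 17.7 to 36.7 CPM in WT, was not called in H4K44Q (edgeR adjusted p = 0.375) but was lower by -2.85 in H3K36A (edgeR adjusted p = 2.33e-06). HHF2 was not called in either H4K44 mutant against WT and was higher by 3.20 in H3K36A.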

How the data were processed

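The authors deposited raw counts of reads per gene and library, made with QuantSeq 3′ libraries (Lexogen) from RNA extracted with hot phenol, per the labels' protocols. The submitters' processing notes name TopHat, HTSeq, featureCounts 1.5.3 and sacCer3 without their roles, and the strand setting is not given in the sources used here. The authors also deposited log2 fold changes relative to WT, used only for a check: the difference of these values between the mutants correlated with the fit at r = 0.892 across 5822 genes. The 14 ATAC-seq samples were not analysed here.

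Summary lines were dropped, leaving 7122 genes, of which 6045 (84.9%) matched RefSeq (assembly R64) for names and positions. The main test was edgeR's quasi-likelihood test (version 4.0.16, R 4.3.3) after TMM scaling, on the 5822 genes that filterByExpr kept. All 90 libraries entered the fit with genotype as the factor, so the spread (dispersion 0.0543) comes from every genotype, including an H3K4R library of 24010 counts. Tests were two-sided, adjusted over all genes within a comparison, with calls under 0.05. Log2 levels used a prior count of 2. Values given within a set are differences of mean log2 levels. Values for a set alone are edgeR estimates, fitted with the H4K44 libraries of that set and all other genotypes. Replicate pairs of the 10 libraries differed beyond counting error (chi-square per degree of freedom at least 6.35). Scripts were tested on simulated data.

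Eligible for naming were called genes with non-overlapping libraries and, in the genotype where they were higher, 10 CPM or more (the 15 largest each way in the direct comparison, 8 for a mutant against WT, 4 for a difference of differences). With under 10 calls, the 10 smallest p each way were eligible as not called, as were up to 4 called members of a list, the histone genes and the markers. Members of lists without a call, and genes of the H4K44Q against WT calls outside these limits, were named after their values were seen. Members and lists were chosen with earlier results of these data known. Alternatives were DESeq2 1.42.0, relative log expression (RLE) scaling, no filter, a 10 CPM filter, only the genotypes compared, a minimum log2 fold change of 1, runs of sample numbers as covariate, the shallow H3K4R library left out and each library left out. Number sets were added after the data were seen.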

Additional observations from a re-analysis of the deposited data

Results flagged for a closer look

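Values of WT were checked in 64 groups of 4 libraries for a library far from the other 3, by Dixon's test at the 95% level. Chance flags about 1 in 20 groups that were not chosen by their values, and 6 of 64 (9.38%) were flagged. Most of these groups were genes chosen by values of these libraries, many of them against WT, so that rate need not hold here. ARG56 stood at 368 CPM in 1 WT library and at 74.3 to 95.1 CPM in the others, DAN1 at 5.44 CPM against 0.469 to 1.01, and TIR2 at 61.2 CPM against 24.4 to 30.4. These were the values of WT S46, in which the 41 Gcn4 targets of amino acid synthesis also had the highest median level of the 10 libraries. PUL3 stood at 2.53 CPM in WT S81 against 1.36 to 1.51 in the others, HMG1 at 117.3 CPM in WT S133 against 80.2 to 85.5, and CSE4 at 36.1 CPM in WT S82 against 23.8 to 24.9. Without S46, the log2 difference of H4K44Q from WT was 4.27 for DAN1 and 1.45 for TIR2, both called with S46 left out, beside -0.46 for ARG56, not called. TIR2 was called in 6 of 16 alternatives. Its call was lost without WT S133, S81 or S82 or H4K44Q S92, S93 or S117 (edgeR adjusted p of 0.0656 to 0.241) and in DESeq2 (adjusted p = 0.0808). DAN1 was not called without WT S133 or H4K44Q S92 or S93 (edgeR adjusted p of 0.0559 to 0.126) or in DESeq2 (adjusted p = 0.0605). Without S81 the difference of PUL3 was 3.33.

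COG6 differed between residues in its response to the exchange, by the test of the difference itself. The value of H4K44 minus H4K91 was -1.55, with H4K91Q high and both H4K44 genotypes level. It was called in 19 of 21 alternatives, with edgeR adjusted p of 0.14 when only the genotypes compared were fitted and of 1 against a minimum log2 fold change of 1.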

How the results depend on the processing

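No paired analysis was possible because the columns carry a genotype and a sample number but not the replicate number of the labels. H4K44Q against H4K44R had 0 calls, and 2 with RLE scaling, 1 with DESeq2, 4 with runs of sample numbers, 9 with number sets and 0 to 2 with a library left out. H4K44Q against WT had 38, and 6 with only the genotypes compared, 2 at a minimum log2 fold change of 1, 165 with runs, 64 with number sets and 23 to 36 with a library left out. H4K44R against WT had 1, and 0, 22 and 5 for the last 3 fits, with 0 to 1 on leaving out a library. H4K44 against H4K91 had 1, and 0 with only the genotypes compared or at a minimum of 1. H4K44 against H3K36 had 0 in each fit. The cause was not tested.

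Estimates of H4K44Q minus H4K44R that changed sign were those of ARG56 (-0.415 to 0.21 on leaving out a library, highest without H4K44R S116, 0.39 in set 1 alone), MSB3 (-0.027 without H4K44Q S92 to 0.255, -0.10 in set 2 alone), and PRM3 (-0.344 to 0.11, with 0.11, 0.06 and 0.04 without H4K44Q S92, H4K44R S115 and H4K44R S91, 0.48 in set 2 alone). In set 2 alone ZRT1 was at -0.52, DAN1 at -1.82, HHF2 at -0.54 and the iron regulon median at -0.10. Without H4K44Q S117 the medians of general stress, trehalose and glycogen and respiratory chain turned. On leaving out a library they ranged from -0.058 to 0.681, from -0.114 to 0.572 and from -0.091 to 0.583. The medians of snoRNAs and tRNA genes kept their sign in each fit run. At this depth and with 3 libraries a genotype, most intervals of genes under 10 CPM reached beyond a log2 difference of 1.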

Other observations

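The genes below were chosen after their values were seen, and none was called between the mutants. ADH2, the alcohol dehydrogenase that glucose represses, stood at 56.2, 69.7 and 66.3 CPM in H4K44Q S92, S93 and S117 and at 26, 22.4 and 27 CPM in H4K44R S91, S115 and S116. WT, at 37.4 to 44.2 CPM, lay between them without overlap, and the log2 difference of the mutants was 1.35 ± 0.53 (SE; edgeR adjusted p = 0.644). ICL1, isocitrate lyase of the glyoxylate cycle, stood at 22.1 to 28.1 CPM in H4K44Q and 12.6 to 15.7 CPM in H4K44R, but WT spread from 10.9 to 21.8 CPM. HPF1, a mannoprotein of the cell wall, stood at 31.1, 10.4 and 13.0 CPM in H4K44Q and 2.42, 5.16 and 2.94 CPM in H4K44R. WT, at 4.69 to 10.9 CPM, overlapped both. With the number set as a covariate ADH2 and HPF1 were among the 9 genes called, a fit added after the data were seen.

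Of 43 genes of meiosis and sporulation, 27 lay above 0 in H4K44Q minus H4K44R (62.8%, beside 51.1% of all genes) and 16 below (median 0.16). The median difference of mean log2 levels was 0.01 within set 1, where 22 lay above 0, and 0.19 within set 2, where 27 did. In 5 of the 43 every H4K44Q library lay above every H4K44R library, as in 5.74% of all genes. The 2 genes that follow were picked for their separation and do not stand for the list. SPS19, a peroxisomal reductase induced in sporulation, stood at 23.1 to 38.9 CPM in H4K44Q, 13.8 to 17.6 CPM in H4K44R and 4.52 to 16.3 CPM in WT. RED1, of the meiotic chromosome axis, stood at 52.5 to 59.5 CPM, 25.2 to 50.2 CPM and 23.9 to 37.1 CPM in the same order. IME1, the inducer of meiosis, did not exceed 2.82 CPM in any of the 10 libraries.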
